A study of Mus musculus with 12 samples.

Results

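The genes described here are 9 transcripts that mark B cells or cells that present antigen on major histocompatibility complex (MHC) class II, followed in RNA sequencing of cultured mouse CD4+ T cells. They were chosen by name from the deposited expression table: H2-Aa, H2-Ab1, H2-Eb1 and Cd74 for class II, and Cd79a, Cd79b, Ms4a1, Blk and Ebf1 for B cells. All 9 were found as 1 row each among the 24538 gene rows, and all 9 passed the filter on low values that left 12436 genes for testing. The series asks how the corepressor SKI, acting with SMAD4, restrains TH17 cells, a class of helper T cells named for interleukin 17. SMAD4 is the common partner of the SMAD proteins that TGF-β receptors activate.

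The cells came from spleen and lymph nodes of C57BL/6 mice labelled female, were activated, and were cultured with interleukin 6 together with an inhibitor of the TGF-β receptor. KO-labelled cells carried floxed Smad4 alleles and a Cre recombinase driven by Cd4, which in mice acts in developing T cells, so that neither B cells nor most other antigen-presenting cells of such mice are targets of the deletion. WT cells had the same strain background and received the same cytokine and inhibitor. There were 4 groups of 3 libraries each: KO-labelled cells at 12 h, WT cells at 12 h, KO-labelled cells at 3 h and WT cells at 3 h after treatment. The labels give replicate numbers without saying whether each came from its own mouse or culture, so the p-values measure the spread between these libraries, which may be in part technical.

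Values are the log2 normalised expression values that the authors deposited. Read depth is unknown, the differences of genes with few reads are understated on this scale, and levels are not corrected for gene length, so they are compared between libraries and never between genes. A gene is called where limma's moderated test, fitted over all tested genes, gave a Benjamini-Hochberg adjusted p under 0.05. Errors are standard deviations (SD) of 3 libraries for group means and standard errors (SE) of the model for differences.

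The T cell label was checked against 13 T cell markers, all of which passed the filter, and whose mean level lay between 13.8 and 14.1 in every library. Of the B cell markers outside the members 22 of 24 rows passed it too, as did 15 of 16 class II pathway rows, whereas 12 of 22 dendritic and myeloid cell markers, among them Flt3, Xcr1, Clec9a, Siglech and Csf1r, had a mean under it. The globin rows Hba-a1, Hba-a2, Hbb-bs and Hbb-bt and the platelet gene Pf4 were listed at 0 in all libraries. No row was found under the names of the immunoglobulin constant genes Ighm, Ighd and Igkc, so these could not be checked. Smad4 lay between 11.5 and 11.7 in all 12 libraries, and its KO minus WT difference was 0.023 ± 0.059 at 12 h and 0.0026 ± 0.059 at 3 h (SE). That row covers the whole gene model, including sequence outside the floxed part, so it does not check the genotype labels. The 4 libraries numbered replicate 2 stood apart: Xist, the RNA of the inactive X chromosome, was at or below 5.70 in them and at or above 15.1 in the other 8, while Ddx3y, a Y-linked gene, was at or above 12.3 in them and at or below 2.77 in the others. The labels give female for these 4 libraries too, which their Xist and Ddx3y values do not match. Because each group holds 1 such library, the calls on members and named genes that end without all 4 of them, and the counts of each list that move, are given beside the results. Without them 29.2% of all tested genes were called lower at 12 h in KO-labelled cells and 28.5% in WT cells.

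MHC class II molecules are pairs of an α and a β chain that show peptides from engulfed protein to CD4+ T cells. The invariant chain, made by Cd74, holds the groove during assembly and steers the complex to the endosome, where proteases trim it away. Mouse T cells, unlike activated human T cells, are known to make little or no class II of their own, and B cells, dendritic cells and macrophages are its main sources in spleen and lymph nodes. CD79A and CD79B are the signalling chains of the B cell receptor, and MS4A1 is the surface protein CD20. BLK is a Src family kinase found mainly in B cells, and EBF1 is a transcription factor that commits progenitors to the B cell fate. In bulk RNA, fewer cells of a type and less of a transcript per cell cannot be told apart.

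Class II genes are known to share promoter elements named the X box and the Y box, which bind the RFX complex and NF-Y and through them the coactivator CIITA. RefSeq promoter windows on GRCm38.p6, from 250 bases before to 50 bases after a transcript's start, were held for Cd79a, H2-Aa, H2-Eb1 and Ebf1, and not for Cd79b, Ms4a1, Cd74, H2-Ab1 and Blk. The H2-Aa window (chr17:34287774-34288073, minus strand) and the H2-Eb1 window (chr17:34305617-34305916, plus strand) are shown because these genes moved together with time, as the values below show. Capitals mark exact matches, searched on both strands, to the Y box letters CTGATTGG and to the X box letters CAACNGATG, and the 2 matches in H2-Eb1 do not overlap.
H2-Aa: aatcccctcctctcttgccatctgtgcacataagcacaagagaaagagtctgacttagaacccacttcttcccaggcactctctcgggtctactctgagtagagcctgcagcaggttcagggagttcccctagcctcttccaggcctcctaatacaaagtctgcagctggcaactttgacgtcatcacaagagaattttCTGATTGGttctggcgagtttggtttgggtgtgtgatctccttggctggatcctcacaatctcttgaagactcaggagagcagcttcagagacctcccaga
H2-Eb1: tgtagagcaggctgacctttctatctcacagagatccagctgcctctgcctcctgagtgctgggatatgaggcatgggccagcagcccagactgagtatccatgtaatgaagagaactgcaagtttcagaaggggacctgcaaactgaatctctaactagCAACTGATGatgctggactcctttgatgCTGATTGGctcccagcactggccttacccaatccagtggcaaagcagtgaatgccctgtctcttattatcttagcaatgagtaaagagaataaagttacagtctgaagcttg
Counted from the transcript's start, the Y box match begins at -51 in H2-Aa and at -62 in H2-Eb1, and the X box match begins at -90 in H2-Eb1. Among all 32851 windows of this length, 1346 (4.10%) held the Y box letters and 186 (0.566%) held the X box letters. No X box letters of this exact form were in the H2-Aa window, which says nothing of binding there.

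The 3 H2 genes lie together on chromosome 17 in GRCm38, within 58986 bases. H2-Ab1 spans 34257689 to 34269419 on the plus strand, H2-Aa 34282744 to 34287823 on the minus strand, and H2-Eb1 34305867 to 34316674 on the plus strand. Cd74 lies apart from them on chromosome 18 (60803848 to 60812652). Among the B cell genes, Cd79a lies on chromosome 7 (24897381 to 24902197), Cd79b on chromosome 11 (106311341 to 106314762), Ms4a1 on chromosome 19 (11249675 to 11266241) and Blk on chromosome 14 (63372836 to 63417037). Ebf1 lies on chromosome 11 (44617317 to 45008091), and all these spans are those of the GENCODE vM21 gene models.

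All 4 class II transcripts fell with time in both genotypes, to levels 4.51-fold to 9.36-fold below those at 3 h. Of the B cell transcripts, Cd79a and Cd79b fell in both genotypes, by 2.00-fold to 2.82-fold. Blk was called lower in WT and Ebf1 in KO-labelled cells, and Ms4a1 was called in neither. In each genotype 7 of the 9 members were thus called lower at 12 h and 0 were called higher. The 7 in KO-labelled cells include Ebf1, which passed the filter through its 3 h libraries. Time moved much of the transcriptome, and 33.6% of all tested genes were called lower at 12 h in KO-labelled cells, with the same share, 33.6%, in WT cells, and 34.3% were called higher in each. The members' median difference was -1.49 in KO-labelled cells and -1.34 in WT cells, against -0.0017 in KO-labelled cells and -0.00044 in WT cells over all tested genes.

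H2-Aa, the α chain of the class II molecule I-A, changed most among the members. In KO-labelled cells its level was 5.75, 6.54 and 6.51 at 12 h, against 8.97, 9.36 and 9.60 at 3 h. In WT cells it was 6.80, 6.03 and 6.14 at 12 h, against 9.62, 9.67 and 9.36 at 3 h. Every 12 h library lay below every 3 h library, by over 2 log2 units at the nearest. The difference of 12 h minus 3 h was -3.04 ± 0.24 in KO-labelled cells (8.23-fold lower, limma adjusted p 1.76e-08) and -3.23 ± 0.24 in WT cells (9.36-fold lower, adjusted p 8.59e-09).

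H2-Ab1 encodes the β chain that pairs with the product of H2-Aa. In KO-labelled cells H2-Ab1 was at 6.19, 6.36 and 6.11 at 12 h, against 8.03, 8.59 and 8.56 at 3 h. WT cells had 6.26, 6.05 and 6.00 at 12 h, against 8.89, 8.82 and 8.74 at 3 h. The 12 h libraries sat close together and below all 3 h libraries, among which KO-labelled replicate 1 was lowest. The difference was -2.17 ± 0.17 in KO-labelled cells (4.51-fold lower, adjusted p 1.68e-08) and -2.72 ± 0.17 in WT cells (6.57-fold lower, adjusted p 1.23e-09).

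H2-Eb1 encodes the β chain of the second mouse class II molecule, I-E. KO-labelled cells had H2-Eb1 at 5.89, 5.98 and 5.83 at 12 h, against 8.23, 8.51 and 8.51 at 3 h. In WT cells the level was 6.31, 6.33 and 6.14 at 12 h, against 8.85, 8.93 and 8.77 at 3 h. The times did not overlap, and at both times all KO-labelled libraries lay below all WT libraries. With time H2-Eb1 changed by -2.52 ± 0.14 in KO-labelled cells (5.73-fold lower, adjusted p 4.83e-10) and by -2.59 ± 0.14 in WT cells (6.02-fold lower, adjusted p 3.40e-10). H2-Ea-ps, the gene model for the I-E α chain, which C57BL/6 mice are known not to express, was listed at 0 in all 12 libraries.

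Cd74, the invariant chain, was in KO-labelled cells at 8.12, 8.52 and 8.70 at 12 h, against 10.74, 11.08 and 11.02 at 3 h. WT cells had Cd74 at 9.07, 8.75 and 8.75 at 12 h, against 11.37, 11.27 and 11.05 at 3 h. Again no library of 12 h reached any library of 3 h, and KO-labelled replicate 1 was the lowest library at each time. The difference was -2.50 ± 0.15 in KO-labelled cells (5.65-fold lower, adjusted p 5.74e-10) and -2.37 ± 0.15 in WT cells (5.18-fold lower, adjusted p 1.02e-09).

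**Figure D1:**
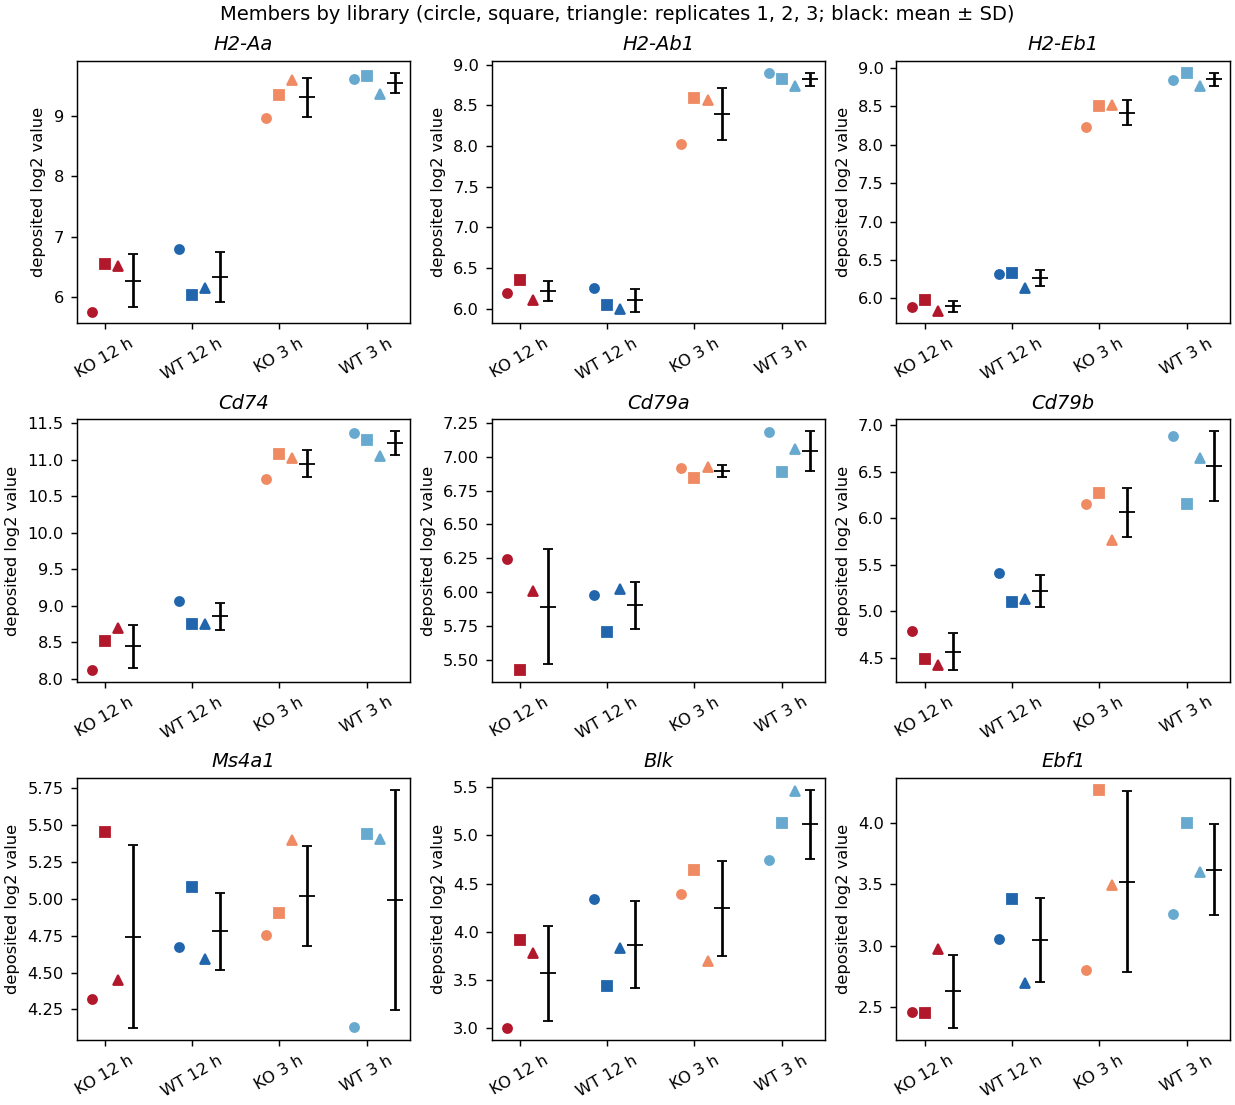
Deposited log2 value of each of the 9 members in every library, by group, with circles, squares and triangles for replicates 1, 2 and 3 and a black bar for the group mean ± SD of 3 libraries. The 4 class II genes and Cd79a and Cd79b separate 12 h from 3 h completely, while Ms4a1 does not, and each panel has its own vertical scale.

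Ranked by their fall among the 12436 tested genes, the class II transcripts stood between rank 98 (H2-Aa) and rank 249 (H2-Ab1) in KO-labelled cells and between rank 82 (H2-Aa) and rank 200 (Cd74) in WT cells. A fall of 2 log2 units or more was seen for 2.52% of tested genes in KO-labelled cells and 2.59% in WT cells, and all 4 class II members were among them in each genotype. The call on each of these 4 genes was kept in all alternatives run, with adjusted p-values no higher than 1.05e-05.

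Cd79a, a signalling chain of the B cell receptor, was in KO-labelled cells at 6.25, 5.42 and 6.01 at 12 h, against 6.91, 6.85 and 6.93 at 3 h. WT cells had 5.98, 5.71 and 6.02 at 12 h, against 7.18, 6.89 and 7.06 at 3 h. The times did not overlap, and the lowest library of all was KO-labelled replicate 2 at 12 h. Cd79a changed by -1.003 ± 0.20 in KO-labelled cells (2.00-fold lower, adjusted p 0.000422) and by -1.14 ± 0.20 in WT cells (2.20-fold lower, adjusted p 0.000131).

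Cd79b, its partner chain, stood in KO-labelled cells at 4.79, 4.49 and 4.42 at 12 h, against 6.16, 6.26 and 5.77 at 3 h. In WT cells Cd79b was at 5.42, 5.10 and 5.13 at 12 h, against 6.88, 6.15 and 6.64 at 3 h. Each 12 h library was below each 3 h library, and at 12 h the KO-labelled libraries were all below the WT libraries. The difference with time was -1.49 ± 0.22 in KO-labelled cells (2.82-fold lower, adjusted p 2.18e-05) and -1.34 ± 0.22 in WT cells (2.54-fold lower, adjusted p 6.40e-05).

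Blk, the B cell Src family kinase, was in KO-labelled cells at 3.00, 3.92 and 3.79 at 12 h, against 4.39, 4.64 and 3.70 at 3 h. WT cells had Blk at 4.34, 3.44 and 3.83 at 12 h, against 4.75, 5.13 and 5.46 at 3 h. The times overlapped in KO-labelled cells, through replicate 3 at 3 h, and did not overlap in WT cells. In WT cells Blk fell by 1.25 on the log2 scale (SE 0.32, 2.37-fold lower, adjusted p 0.00292). In KO-labelled cells the difference of -0.67 ± 0.32 was not called (adjusted p 0.0760), but it was without KO 3 h replicate 3 (adjusted p 0.0223) and with median centring (adjusted p 0.0380).

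Ebf1, the factor of B cell commitment, lay closest to the filter, with a mean deposited value of 3.20 over the 12 libraries. Its mean in KO-labelled cells was 2.62 at 12 h, under the filter value of 3, and 3.52 at 3 h. It thus passed through its 3 h libraries, and its call with time is not read as support for a fall. KO-labelled cells had Ebf1 at 2.46, 2.44 and 2.97 at 12 h, against 2.80, 4.28 and 3.50 at 3 h. In WT cells it was at 3.06, 3.38 and 2.69 at 12 h, against 3.26, 4.004 and 3.60 at 3 h. The times overlapped in both genotypes, and KO-labelled replicate 2 at 3 h was the highest library. The difference with time in KO-labelled cells was -0.90 ± 0.34 (1.87-fold lower, adjusted p 0.0286) and that in WT cells was -0.58 ± 0.34 (adjusted p 0.146, not called, and 0.0308 with array weights). The call in KO-labelled cells ended without the 4 replicate 2 libraries (difference -0.43, adjusted p 0.317), which left 6 of 9 members called there and 7 of 9 in WT cells. It ended in 8 of 20 alternatives in all, 4 of which left out 1 library: KO 3 h replicate 2 (adjusted p 0.172), KO 3 h replicate 3 (0.0536), KO 12 h replicate 1 (0.0843) or KO 12 h replicate 2 (0.0857).

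Ms4a1, which encodes CD20, spread as widely within groups as between them. In KO-labelled cells it was at 4.32, 5.45 and 4.45 at 12 h, against 4.76, 4.90 and 5.40 at 3 h. WT cells had Ms4a1 at 4.67, 5.08 and 4.59 at 12 h, against 4.13, 5.44 and 5.41 at 3 h. All groups overlapped, and both the lowest value and the largest group SD, 0.75, belonged to WT cells at 3 h. Neither difference was called, at -0.28 ± 0.36 in KO-labelled cells (adjusted p 0.505) and -0.21 ± 0.36 in WT cells (adjusted p 0.618). The interval of 2 SE to either side ran from -0.99 to 0.44 in KO-labelled cells and from -0.93 to 0.50 in WT cells. In the order of the group means, both groups at 3 h stood above both groups at 12 h for all 9 members, and neighbours in that order that differ in genotype alone were in no case called apart.

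**Figure D2:**
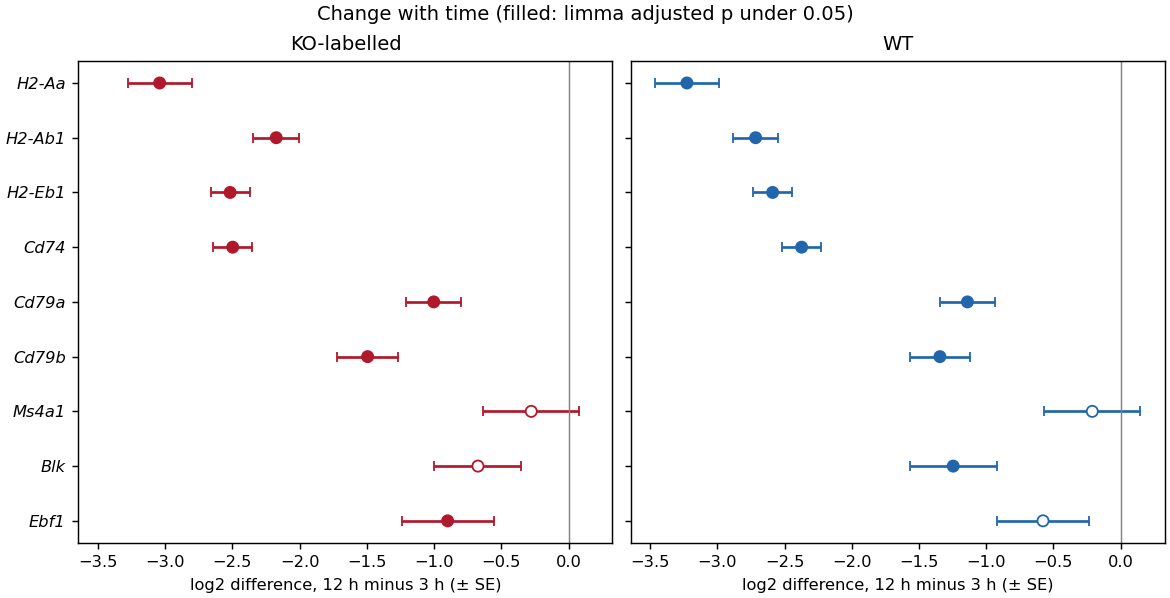
Log2 difference of 12 h minus 3 h for each member in KO-labelled and WT cells, with bars of 1 SE from the limma model and filled points for an adjusted p under 0.05. The class II genes lie between -3.23 and -2.17, the B cell genes between -1.49 and -0.21.

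All 12 h values lay below all 3 h values for 6 of 9 members in KO-labelled cells, against 34.5% of all tested genes, and for 7 of 9 members in WT cells, against 35.8%. Every class II member had a larger difference with time than every B cell member. The mean level of the 4 class II members exceeded that of the 5 B cell members by 2.43 ± 0.09 log2 units in KO-labelled cells at 12 h and 2.32 ± 0.09 in WT cells at 12 h. At 3 h this gap was 4.12 ± 0.22 in KO-labelled cells and 4.14 ± 0.30 in WT cells (SD, n = 3 each). The absolute gap mixes genes of different length and read depth, so it is not read. The gaps of the 2 times did not overlap in either genotype. Differences of genes with few reads are understated on this scale, which can affect the 2 sets unequally. The smaller falls of the B cell members and the narrower gap at 12 h therefore cannot be told apart from an effect of the scale.

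The genotype comparison asks whether KO-labelled cells differed from WT cells at either time. No member was called at 12 h, against 0.667% of all tested genes, none at 3 h, against 1.05%, and none in the mean of both times, against 2.29%. Most differences were negative, in 8 of 9 members at 12 h, against 53.2% of all tested genes. At 3 h they were so in 8 of 9 members, against 50.3%, and in the mean of both times in 9 of 9, against 52.4%. The members' medians were -0.30 at 12 h, -0.28 at 3 h and -0.26 in the mean, while those of all tested genes were within 0.01 of 0. At an unadjusted p under 0.05 there were 3 members at 12 h (Cd79b, Cd74 and H2-Eb1), against 6.37% of all tested genes, 4 at 3 h (Cd79b, H2-Ab1, H2-Eb1 and Blk), against 9.09%, and 4 in the mean (Cd79b, Cd74, H2-Eb1 and Blk), against 10.7%. With the replicate number as a block the calls over all genes at 3 h numbered 200 (1.61%) in place of 130, and 0 members were called there as well. Leaving out 1 library at a time moved that count between 22 and 261, with 0 members called in each case.

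In the main fit Cd79b was the member nearest to a call at 12 h. H2-Eb1, the I-E β chain, was nearest at 3 h and in the mean of both times, with all KO-labelled libraries below all WT libraries at each time. Its KO minus WT difference was -0.36 ± 0.14 at 12 h (adjusted p 0.603) and -0.43 ± 0.14 at 3 h (adjusted p 0.257). Over both times the mean difference was -0.40 ± 0.10 (1.32-fold lower, adjusted p 0.0586). It was called with the filter at a mean of 5 (adjusted p 0.0476) and with a prior without trend (0.0235), and its adjusted p ranged up to 0.335 over the alternatives.

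Cd79b, the β signalling chain of the B cell receptor, had a KO minus WT difference of -0.65 ± 0.22 at 12 h (adjusted p 0.399), where the groups did not overlap, and -0.50 ± 0.22 at 3 h (adjusted p 0.507), where they did. The mean of both times was -0.57 ± 0.16 (1.49-fold lower, adjusted p 0.0808), and it was called without WT 3 h replicate 2 (adjusted p 0.0261). Blk had a difference of -0.30 ± 0.32 at 12 h (adjusted p 1.00), where the values overlapped, and of -0.87 ± 0.32 at 3 h (adjusted p 0.331), with no overlap between KO-labelled and WT libraries. The invariant chain gene Cd74 was at -0.41 ± 0.15 at 12 h (adjusted p 0.448) without overlap, and at -0.28 ± 0.15 at 3 h (adjusted p 0.631) with overlap.

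H2-Ab1, the I-A β chain, was the member with a higher mean in KO-labelled than in WT cells at 12 h: the KO minus WT difference was 0.12 ± 0.17 at 12 h (adjusted p 1.00) and -0.42 ± 0.17 at 3 h (adjusted p 0.409), where no values overlapped. H2-Aa was at -0.06 ± 0.24 at 12 h and -0.24 ± 0.24 at 3 h, Cd79a at -0.01 ± 0.20 at 12 h and -0.15 ± 0.20 at 3 h, and Ebf1 at -0.42 ± 0.34 at 12 h and -0.10 ± 0.34 at 3 h, none of them called and all with overlapping values. Ms4a1, at -0.04 ± 0.36 at 12 h and 0.03 ± 0.36 at 3 h, had no steady sign. In all, 3 of 9 members had every KO-labelled value below every WT value at 12 h, against 7.41% of tested genes, and 3 of 9 did so at 3 h, against 5.99%.

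B cell markers outside the members were also mostly on the negative side, in 16 of 22 at 12 h and 18 of 22 at 3 h. Of all tested genes 53.2% were negative at 12 h and 50.3% at 3 h. Class II pathway genes outside the members were negative in 4 of 15 at 12 h (median 0.06) and in 8 of 15 at 3 h (median -0.05). The part of these lists in the members' genotype differences was not tested. The missed calls on members do not show that the genotypes had equal levels. The interval of 2 SE to either side of the difference in the mean of both times ran from -0.60 to -0.19 for H2-Eb1, from -0.89 to -0.26 for Cd79b and from -0.49 to 0.19 for H2-Aa. For Ms4a1 it ran from -0.51 to 0.50, so that a difference of 0.5 log2 units in either direction was not resolved.

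**Figure D3:**
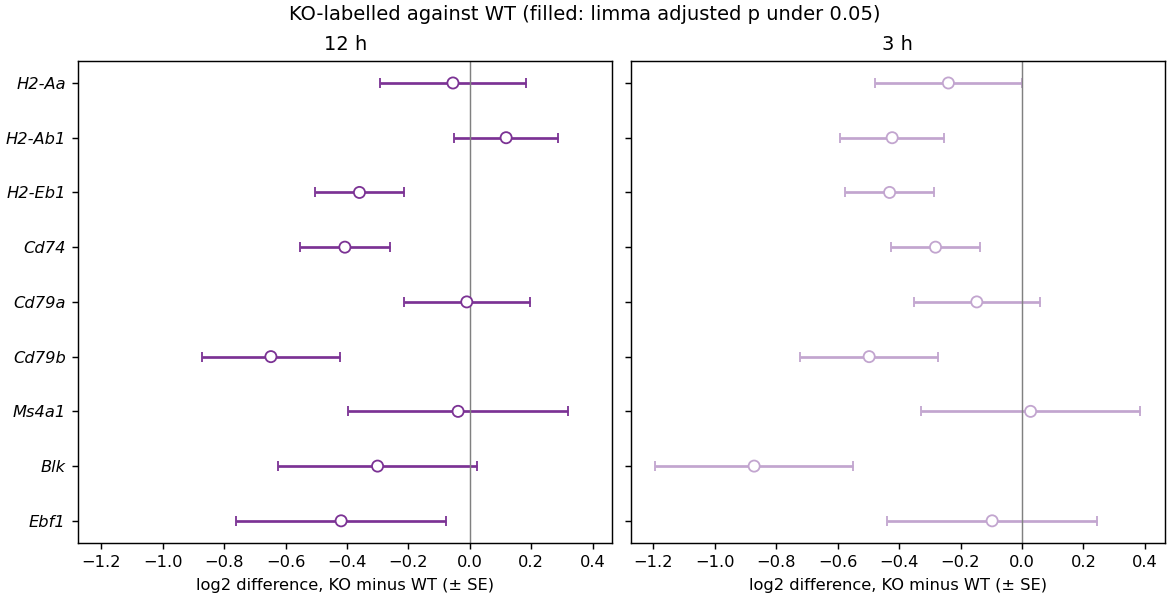
Log2 difference of KO-labelled minus WT for each member at 12 h (left) and 3 h (right), with bars of 1 SE from the limma model and open points where the adjusted p was not under 0.05. All points are open, and 8 of 9 lie below 0 at each time.

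The interaction asks whether the change with time differed between KO-labelled and WT cells. No member was called, and no gene of the whole table was (0%), although the fit with the replicate block called 3 genes, none of them a member. At an unadjusted p under 0.05 there were 497 genes (4%) and 1 member, H2-Ab1, whose fall was smaller in KO-labelled than in WT cells by 0.54 ± 0.24 log2 units (p 0.0396, adjusted p 0.998, limma). Blk had a difference of 0.57 ± 0.46 in the same sense, and those of the other members lay between -0.32 (Ebf1) and 0.18 (H2-Aa). Blk and Ebf1, each called with time in 1 genotype, are therefore not shown to differ between genotypes.

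Of 15 tested genes of the class II pathway outside the members, which cover its regulators, the editing proteins H2-DM and H2-DO, endosomal proteases and costimulatory ligands, 4 fell and 3 rose in KO-labelled cells and 7 fell and 2 rose in WT cells with time (6 fell in WT cells without the replicate 2 libraries). Of all tested genes 33.6% were called lower and 34.3% higher in each genotype, and the falls in KO-labelled cells did not exceed that share. The falls in KO-labelled cells were those of Cd86, Ctss, H2-Ob and Rfx5, and the rises those of H2-DMa, Ifi30 and Rfxap there and of Cd80 and Ifi30 in WT cells. The median was -0.42 in KO-labelled cells and -0.71 in WT cells. The subunit of the RFX complex that binds the X box, Rfx5, fell by 1.21 on the log2 scale in KO-labelled cells (SE 0.07, adjusted p 4.77e-10) and by 1.35 in WT cells (adjusted p 1.51e-10). Its partner in that complex, Rfxank, differed by -0.0049 ± 0.090 in KO-labelled cells and 0.020 ± 0.090 in WT cells, neither called. The protease Ctss, which trims the invariant chain, fell by 1.77 in KO-labelled cells (adjusted p 1.31e-10) and fell by 1.89 in WT cells (adjusted p 6.10e-11). Ciita, the coactivator of class II genes, was picked out after its values were seen: its differences of -0.48 ± 0.31 in KO-labelled cells (adjusted p 0.177) and -0.71 ± 0.31 in WT cells (adjusted p 0.0504) were not called. The difference in KO-labelled cells was called without KO 3 h replicate 1 (adjusted p 0.0305), and that in WT cells in 7 of 20 alternatives. These were median centring (adjusted p 0.0266), array weights (0.0169), only the groups compared (0.0236), and the fits without KO 3 h replicate 1 or 2, WT 3 h replicate 3 or KO 12 h replicate 3 (0.0289 to 0.0402).

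Lgmn, an endosomal protease that cuts antigens and the invariant chain, was the pathway gene called between genotypes. Its level was 4.58, 3.91 and 4.87 in KO-labelled cells at 3 h, against 7.15, 6.05 and 6.63 in WT cells at 3 h. No KO-labelled value reached a WT value, and the difference was -2.16 ± 0.33 (4.46-fold lower, adjusted p 0.00709). At 12 h it was at 4.52, 4.79 and 5.63 in KO-labelled cells and 5.21, 5.64 and 5.71 in WT cells, a difference of -0.54 ± 0.33 that was not called (adjusted p 0.999). The call at 3 h ended with no filter other than rows at 0 (adjusted p 0.109) and with a prior without trend (0.0585). The difference between the times was not called (interaction 1.62 ± 0.47, adjusted p 0.728).

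Of 22 tested B cell markers outside the members, 12 fell and 2 rose with time in KO-labelled cells and 13 fell and 1 rose in WT cells. Of all tested genes 33.6% were called lower in each genotype. The median was -0.64 in KO-labelled cells and -0.69 in WT cells. The rises were those of Btk and Tnfrsf13b in KO-labelled cells and of Btk in WT cells. Without the 4 replicate 2 libraries 6 fell and 1 rose in KO-labelled cells, and 11 fell and 1 rose in WT cells. The shares of all tested genes called lower in that fit were 29.2% in KO-labelled and 28.5% in WT cells. The count in KO-labelled cells did not exceed that share. The mean level of the 22 markers ran from 5.86 to 5.96 in KO-labelled cells at 12 h, from 5.86 to 6.11 in WT cells at 12 h, from 6.25 to 6.54 in KO-labelled cells at 3 h and from 6.52 to 6.62 in WT cells at 3 h. Pou2af1, a B cell coactivator that activated T cells also make, fell by 0.86 in KO-labelled cells (adjusted p 1.73e-05) and by 0.83 in WT cells (adjusted p 2.45e-05). Swap70, a signalling protein of B cells, fell by 0.95 in KO-labelled cells (adjusted p 6.46e-09) and by 0.69 in WT cells (adjusted p 2.52e-07). The tetraspanin Cd37 fell by 0.26 in KO-labelled cells (adjusted p 0.0205, not called without KO 3 h replicate 2, 0.0584, or KO 12 h replicate 2, 0.118, or all 4 replicate 2 libraries, 0.253) and by 0.37 in WT cells (adjusted p 0.00241), and Ralgps2 was not called (0.15 ± 0.09 in KO-labelled cells, 0.11 ± 0.09 in WT cells).

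Between genotypes 0 of the 22 B cell markers were called at 12 h (median -0.10) and 0 at 3 h (median -0.12). In the mean of both times the Fc receptor-like gene Fcrl1, also picked out after its values were seen, was called higher in KO-labelled cells (0.78 ± 0.17, adjusted p 0.0278). This sign is opposite to that of most members. The call ended in 8 of 20 alternatives, among them those without all 4 replicate 2 libraries (adjusted p 0.115) and without KO 3 h replicate 1 or 3, KO 12 h replicate 1 or 2, or WT 12 h replicate 2 (adjusted p 0.0636 to 0.0723). Without the replicate 2 libraries the marker called in the mean was Fcer2a, the low-affinity IgE receptor CD23 of B cells, named after its values were seen, which was lower in KO-labelled cells (-0.87, adjusted p 0.0301, against -0.56, 0.131 with all libraries).

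Of the 10 dendritic and myeloid markers that passed the filter, 7 fell and 1 rose with time in each genotype, against 33.6% of all tested genes lower in each, with medians of -1.16 in KO-labelled cells and -1.15 in WT cells. Without the replicate 2 libraries 6 fell in KO-labelled cells and 5 in WT cells. Cd68, an endosomal protein of macrophages, fell by 1.73 in KO-labelled cells (adjusted p 1.57e-07) and by 1.36 in WT cells (adjusted p 2.14e-06). The integrin Itgam differed by -1.06 ± 0.46 in KO-labelled cells (adjusted p 0.0498) and -1.15 ± 0.46 in WT cells (adjusted p 0.0354). Its call in KO-labelled cells ended without KO 3 h replicate 1 or 3, KO 12 h replicate 1, WT 3 h replicate 2 or WT 12 h replicate 1 or 2 (adjusted p 0.0551 to 0.238), and that in WT cells without WT 3 h replicate 2 or 3 or WT 12 h replicate 1 or 2 (0.0632 to 0.160) or without all 4 replicate 2 libraries (0.0961). With no filter other than rows at 0, quantile normalization or no trend in the prior it was called in neither genotype (0.0699 to 0.144), nor in KO-labelled cells with array weights (0.0818). Itgax, the integrin CD11c of dendritic cells, picked out after its values were seen, had 3.16, 2.38 and 2.51 in KO-labelled cells at 12 h, against 4.49, 3.82 and 4.25 at 3 h, a difference of -1.51 ± 0.34 (adjusted p 0.00102). Its means at 12 h, 2.68 in KO-labelled and 2.42 in WT cells, were under the filter value of 3. Itgax thus passed through its 3 h libraries, and its call is not read as support for a fall. It is among the 7 counted falls in each genotype, and other low markers of this list can have passed in the same way. Neither that count nor the list's lower mean level at 12 h is therefore read as support for a fall. Cst3, a protease inhibitor that dendritic cells make in large amounts and many other cells make too, rose by 0.73 ± 0.10 in KO-labelled cells and 0.54 ± 0.10 in WT cells, and Zbtb46, a factor of conventional dendritic cells, was not called (-0.23 ± 0.25 in KO-labelled cells and -0.13 ± 0.25 in WT cells). The mean level of the 10 markers ran from 4.26 to 4.28 in KO-labelled cells at 12 h, from 4.26 to 4.34 in WT cells at 12 h, from 5.02 to 5.30 in KO-labelled cells at 3 h and from 4.99 to 5.31 in WT cells at 3 h. None of the 22 listed markers was at 0 in all libraries. The mean level of the B cell list and that of the myeloid list were thus lower at 12 h than at 3 h in both genotypes. This was not particular to them, since the mean levels of all the other lists were lower at 12 h too. That of the T cell markers went from 14.05 to 13.87 in KO-labelled cells and from 14.06 to 13.86 in WT cells. The part of the B cell and myeloid lists in the members' falls was not tested.

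Genes that every T cell uses also changed with time, where 33.6% of all tested genes were called lower and 34.3% higher in each genotype. Of 13 genes of the class I pathway, by which all nucleated cells show peptides from the cytosol, 9 fell and 3 rose in each genotype, with medians of -0.96 in KO-labelled cells and -1.13 in WT cells. Without the replicate 2 libraries 8 fell in KO-labelled cells and 2 rose in WT cells. B2m, the light chain of class I, fell by 1.82 in KO-labelled cells (adjusted p 2.05e-11) and fell by 1.81 in WT cells (adjusted p 1.94e-11). H2-K1, a heavy chain whose reads can be shared with near-identical class I genes, fell by 1.78 in KO-labelled cells and fell by 1.83 in WT cells. The chaperone Calr rose by 0.48 in KO-labelled cells (adjusted p 9.36e-06) and 0.52 in WT cells (adjusted p 3.63e-06), Pdia3 and Psmb8 rose too, and Canx was not called (0.08 ± 0.06 in each genotype). With quantile normalization Canx was called higher, by 0.37 in KO-labelled cells (adjusted p 2.65e-05) and 0.38 in WT cells (adjusted p 1.89e-05), and under median centring its sign was negative. Of the 13 T cell markers 6 fell and 4 rose in KO-labelled cells and 7 fell and 5 rose in WT cells, with a median of -0.17 in KO-labelled cells and -0.26 in WT cells. The rises were those of Cd247, Cd28, Cd3d and Cd4 in both genotypes and of Cd3e in WT cells, and without the replicate 2 libraries 5 rose in KO-labelled cells, and 6 fell and 3 rose in WT cells. The kinase Lck fell by 0.53 in KO-labelled cells and fell by 0.64 in WT cells. Zap70 fell by 0.40 in KO-labelled cells (adjusted p 0.000260, and 0.280 with quantile normalization) and fell by 0.52 in WT cells. Cd5 fell by 0.26 in WT cells (adjusted p 0.00777), a call that ended without the 4 replicate 2 libraries (-0.20, adjusted p 0.0793) and with quantile normalization (-0.065, 0.436). In KO-labelled cells Cd5 differed by -0.17 ± 0.08 (adjusted p 0.0611), which was called without KO 3 h replicate 1 (0.0451), without KO 12 h replicate 3 (0.0178) and with median centring (0.00436). Between genotypes 0 genes of the class I, T cell and myeloid lists were called at either time.

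The remaining lists were short, and their counts stand against the same shares of all tested genes, 33.6% lower and 34.3% higher in each genotype. Of 5 tested plasma cell markers 3 fell in each genotype, Irf4, Jchain and Prdm1 in KO-labelled cells and Irf4, Prdm1 and Xbp1 in WT cells, and 2 fell in each without the replicate 2 libraries. Of 7 CD8 T and NK cell markers Gzma and Prf1 fell and Nkg7 rose in KO-labelled cells, and Gzma, Klrd1 and Prf1 fell and Cd8b1 rose in WT cells, where 2 fell and 0 rose without the replicate 2 libraries. Of 2 erythroid and platelet markers 1, Itga2b, fell in each genotype. None of these genes was called between KO-labelled and WT cells.

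**Figure D4:**
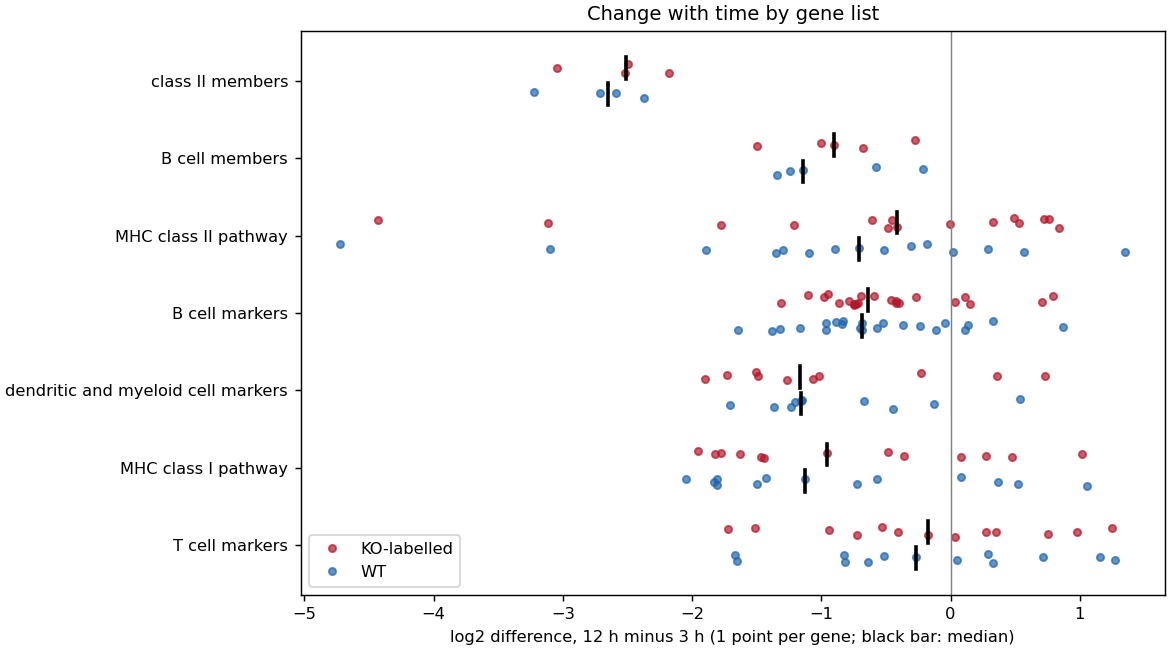
Log2 difference of 12 h minus 3 h for each tested gene of the members and of 5 other lists, with KO-labelled cells above WT cells and a black bar at each list's median. In KO-labelled cells the medians are -2.51 for the class II members, -0.90 for the B cell members, -1.16 for the myeloid markers and -0.17 for the T cell markers, and in WT cells they are -2.65, -1.14, -1.15 and -0.26 for the same lists.

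The genes most alike to the members were sought by Pearson's r, over the 12 libraries, with the mean of the members' centred values. The 10 highest were Ubn1 (0.995), Nfkbiz (0.994), Parp4, Map3k5, Tbc1d30, Map3k1, Tbl1x, Aff1, Etv3 and Rcn1 (0.991). All 10 were lower at 12 h, from -0.54 (Ubn1) to -2.21 (Tbc1d30) in KO-labelled cells and from -0.52 to -2.29 in WT cells. The 12 libraries share the step between 3 h and 12 h, and 2382 of 12427 other genes (19.2%) had an r of at least 0.9.

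Within groups, once each group's mean was taken away, the 4 class II members varied together, with r between 0.45 and 0.91 over their 6 pairs and a median of 0.60. The closest pair was H2-Aa with Cd74 (0.91), followed by H2-Ab1 with H2-Eb1 (0.86). The 10 pairs among B cell members had r between -0.76 and 0.43 (median -0.05), and the 20 pairs between a class II and a B cell member had r between -0.41 and 0.63 (median 0.03). These values describe 12 libraries, 3 around each of 4 group means, and carry no test. KO-labelled replicate 1 had all 4 class II members under the group mean at both times, by 0.22 log2 units on average at 12 h and 0.27 at 3 h. In WT cells all 4 lay above the group mean in replicate 1 at 12 h and below it in replicate 3 at 12 h and at 3 h.

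**Figure D5:**
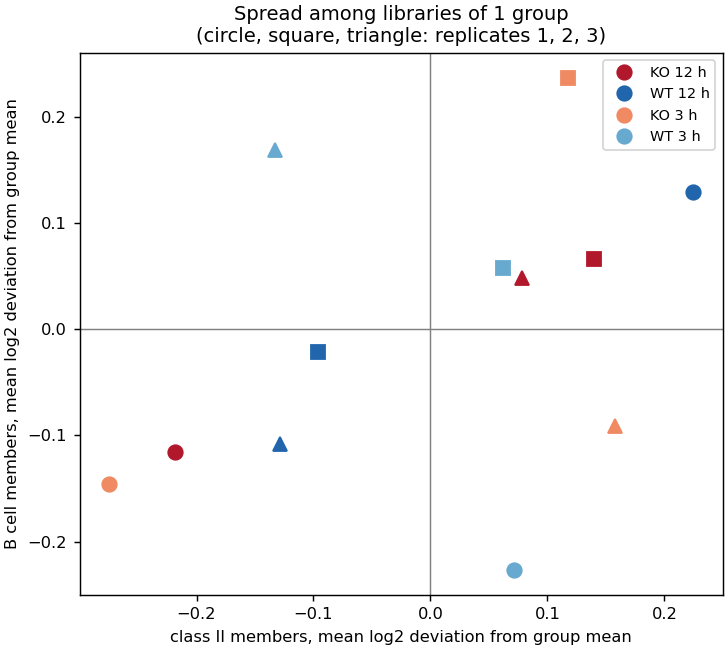
Mean log2 deviation of the 5 B cell members from their group mean against that of the 4 class II members, 1 point per library, with colours for groups and circles, squares and triangles for replicates 1, 2 and 3. Class II deviations run from -0.27 to 0.22 and B cell deviations from -0.23 to 0.24.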

How the data were processed

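Total RNA of 12 libraries was read on an Illumina HiSeq sequencer, per the labels. The authors deposited 1 table of log2 normalised values with 24538 gene rows and 12 library columns, each matched to 1 sample title. The submitters' processing notes name Trim Galore, STAR, featureCounts, DESeq2 and mm10. Their versions, and the transform, are not stated in the labels or the file. Of the rows, 5663 were at 0 in all libraries, 0 were at 0 in only some, and 3989 had a negative mean, as a regularised log gives. Such a transform draws low values together, and since counts cannot be had from it, detection limits were not computed. The kit does not mark strand, so reads of overlapping genes cannot be told apart.

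Group means were fitted with limma 3.58.1 in R 4.3.3 over all 12 libraries (lmFit, eBayes with trend), for genes with a mean of at least 3, and tested two-sided with Benjamini-Hochberg adjustment over 12436 genes. The fit was tested on simulated data. A fold is 2 raised to the log2 difference. The members and the 8 gene lists were chosen with earlier results of these data known. Named genes are the members, up to 4 genes of a list (called between genotypes, then highest mean) and the 10 most alike genes. Not every gene named by this rule is reported here; all are still in the counts. Genes named as the whole of a small count, and Ciita, Fcrl1, Fcer2a, Itgax, H2-Ea-ps, Xist and Ddx3y, were chosen after their values were seen. For the plasma cell, CD8 T and NK cell, and erythroid and platelet lists only counts are given.

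Alternatives were no filter other than rows at 0, a filter at 5, quantile normalization, median centring, no trend in the prior, array weights, a replicate block, only the groups compared, leaving out the 4 replicate 2 libraries, and leaving out each library. Deviations from group means correlated between same-numbered KO and WT libraries at 0.17 to 0.50 at 12 h and 0.19 to 0.40 at 3 h. Those of unlike number reached 0.15 at 12 h and 0.013 at 3 h. The numbers may thus pair the libraries, which the labels do not state. The main fit did not use such a pairing, and the replicate block did. Between times the deviations of same-numbered libraries correlated at 0.064 to 0.37 in KO-labelled cells, where not every pair passed 0.1, and at 0.21 to 0.43 in WT cells. In KO-labelled cells a pair of unlike number reached 0.19.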

Additional observations from a re-analysis of the deposited data

How the results depend on the processing

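Of 1098 values of single members recomputed under the alternatives, 1039 kept their direction and their side of the threshold, 8 lost a call, 6 gained one and 45 turned their sign, all of them in differences that were not called. Depth is unknown, so what it limits cannot be given gene by gene. The cause of these changes was not tested.

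The count of genes called at 3 h, 130, was 14 with no filter other than rows at 0, 9 with no trend in the prior, 54 with array weights, 200 with the replicate block and 32 with only the groups compared. At 12 h, 83 became 40 with no filter, 39 with no trend, 167 with array weights and 22 without the replicate 2 libraries. The mean of both times, 285, became 92 with no filter, 128 with no trend and 163 without the replicate 2 libraries, and the members called there numbered 1 with the filter at 5 and 1 with no trend. The interaction, 0, became 3 with no filter, 2 with quantile normalization and 3 with the replicate block. The block changed no call on a member. The members' median difference at 12 h was -0.15 with array weights, and with the filter at 5, which drops 3 B cell members, the medians with time were -2.34 in KO-labelled and -2.48 in WT cells. Median centring moved all differences with time by -0.13 in KO-labelled and -0.11 in WT cells.

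Leaving out 1 library gave counts of 22 to 261 at 3 h, 49 to 102 at 12 h, 155 to 392 in the mean, 0 to 28 in the interaction, and 7934 to 8539 (KO-labelled) and 7777 to 8520 (WT) with time. Members called were 0 to 0 at 3 h and at 12 h, 0 to 1 in the mean, 0 to 0 in the interaction, and 6 to 7 (KO-labelled) and 7 to 7 (WT) with time. Their median ran from -0.47 to -0.18 at 3 h, -0.39 to -0.092 at 12 h, -0.38 to -0.083 in the mean, -0.021 to 0.12 in the interaction, and -1.64 to -1.39 (KO-labelled) and -1.55 to -1.29 (WT) with time.

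The KO minus WT sign at 3 h turned for Ms4a1 (-0.24 with array weights, -0.40 to 0.25 leaving out 1 library) and for Ebf1 (-0.47 to 0.27 leaving out 1). At 12 h it turned for Cd79a (0.037 with quantile normalization, 0.13 without the replicate 2 libraries, -0.19 to 0.22 leaving out 1), Ms4a1 (0.15 with array weights, -0.39 to 0.17) and H2-Aa (0.16 with array weights, -0.20 to 0.20). In the mean it turned for Ms4a1 (0.039 with quantile normalization, 0.032 without the replicate 2 libraries, -0.22 to 0.11) and Cd79a (-0.17 to 0.038). In the interaction, array weights gave -0.050 for Cd79a, 0.39 for Ms4a1, 0.014 for Cd74 and 0.0025 for Ebf1, and the fit without the replicate 2 libraries gave 0.14 for Cd79b, -0.13 for H2-Aa and 0.12 for Ebf1. Leaving out 1 library, the interaction ran from -0.040 to 0.37 for Cd79a, -0.31 to 0.052 for Cd79b, -0.42 to 0.36 for Ms4a1, -0.25 to 0.038 for Cd74, -0.021 to 0.12 for H2-Eb1 and -0.69 to 0.053 for Ebf1. The difference with time turned for Ms4a1 in WT cells (-0.64 to 0.012 leaving out 1). Quantile normalization turned it for Ralgps2 (-0.0069 in KO-labelled, -0.043 in WT cells), Rfxank (-0.13 in WT) and Zbtb46 (0.069 in WT), and median centring for Canx (-0.054 in KO-labelled, -0.031 in WT cells) and Rfxank (-0.088 in WT). Without the replicate 2 libraries it was 0.096 for Rfxank in KO-labelled and 0.078 for Zbtb46 in WT cells, and leaving out 1 library Rfxank ran from -0.056 to 0.062 in KO-labelled cells.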
